A study of Mus musculus with 6 samples.

Results

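Glutathione transferases and peroxide-reducing enzymes were examined in whole sciatic nerves, the large nerves of the hind leg, from Srebf-1c KO mice and from their wild-type littermates. The set was chosen by name: probe sets with 1 gene symbol whose symbol belongs to the cytosolic and mitochondrial Gst, Gpx or Prdx families, plus 13 genes of glutathione synthesis, thioredoxin reduction, superoxide removal and the oxidative stress response. It held 43 of the 22180 genes measured, 30 by family name and 13 by the added list. Srebf-1c KO and wild type (WT) had 3 samples each, every mouse was 10 months old, and each sample was hybridised to 1 Affymetrix whole-transcript array. No other allele or treatment is named in the labels, which give neither sex, strain nor the deleted part of the gene, and which do not say that each sample came from a different mouse. P-values therefore speak of the spread from sample to sample alone, and some of that spread may be technical. Levels are log2 of the deposited probe set intensity, and a log2 fold change is the mean of KO minus the mean of WT. Values with ± are SDs over 3 arrays for levels and standard errors for fold changes.

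Glutathione is the main small thiol of cells. It is made by glutamate-cysteine ligase (catalytic subunit Gclc, modifier subunit Gclm) and glutathione synthetase (Gss), and the oxidised form is reduced again by glutathione reductase (Gsr) with NADPH. Glutathione peroxidases spend it to reduce hydrogen peroxide and lipid hydroperoxides, glutathione transferases couple it to electrophiles, and peroxiredoxins reduce peroxides with electrons from thioredoxin. Many of these genes are targets of the transcription factor NRF2, which KEAP1 marks for degradation. Myelin is rich in lipid, and Srebf-1c is known as a driver of fatty acid synthesis, a pathway that also draws on NADPH.

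The targeted gene, Srebf1, had log2 intensities of 8.11, 8.06 and 8.04 in KO nerves against 9.53, 9.55 and 9.70 in WT nerves. It fell by 1.52 on the log2 scale in KO (SE 0.11, limma adjusted p = 0.0497), a call close to the threshold that was lost in each of the 6 fits that left out an array. Median intensity over 41077 probe sets ran from 118.9 to 122.6 on KO arrays and from 115.5 to 118 on WT arrays. Over the 22180 genes tested the shift ran the other way, with a median log2 fold change of -0.032. The setting with arrays at 1 median, among those tried below, used these genes. Marker levels of tissue around the nerve differed between arrays within each genotype. Summed intensity of 16 measured adipocyte markers was 28929, 57826 and 22600 in KO and 25606, 26126 and 60173 in WT, so KO replicate 2 and WT replicate 3 stood apart. In whole nerve, fewer cells of a type and less RNA per cell cannot be told apart. Summed intensity of 20 skeletal muscle markers ran from 79478 to 129948 in KO and from 54366 to 144192 in WT. None of the 12 measured Schwann cell and myelin markers, among them Mbp of the myelin sheath, spanned more than 1 log2 unit over the arrays, and each lay above the 54th percentile of intensity. Of the 12, 7 had a higher and 5 a lower mean in KO, with a median log2 fold change of 0.037. Egr2, a transcription factor of myelinating Schwann cells, was the 1 of them whose groups did not overlap. This is 8.33% of the 12, against 12.3% of all genes. Egr2 had 10.32, 10.14 and 10.22 in KO against 9.63, 9.93 and 9.64 in WT. Its log2 fold change was 0.50 (limma unadjusted p = 0.00692), short of the adjusted threshold.

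By limma, 0 of the 43 members had an adjusted p under 0.05, against 0.00451% of all genes, and the smallest adjusted p of a member was 0.850. An unadjusted p under 0.05 was reached by 2 members, Gstp1 and Gpx4, both with a lower mean in KO. The methods' ANOVA instead took Gpx4, Gclc and Gss as lower and Gstt4 as higher in KO, without Gstp1. The limma count is 4.65% of the set, against 5.83% of all genes tested. All genes at this level were split into 520 higher and 773 lower in KO, a split that was 612 and 590 after quantile normalization and 565 and 463 with arrays at 1 median. The thresholds of the study, an unadjusted p under 0.05 with at least a 1.5-fold change, were met by 0 members with the limma p, against 1.19% of all genes (0.64% higher and 0.555% lower in KO). Those were 142 higher and 123 lower genes, and 188 and 101 with arrays at 1 median. KO and WT arrays did not overlap for 4 members, of which 3 were lower in KO (Gpx4, Gclc and Gss) and 1 was higher (Gstt4). This is 9.30% of the set, against 12.3% of all genes. Of the 43 members 24 had a lower mean in KO, 55.8% against 56.9% of all genes, and the median log2 fold change was -0.051, against -0.032 over all genes. Counts of members were thus near those of all genes in each of these measures. The 95% interval of the difference lay within a 2-fold change in both directions for 37 members. The other 6 were Gstp1, Gstp2, Gstt1, Gstm2, Gpx3 and Slc7a11.

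**Figure D1:**
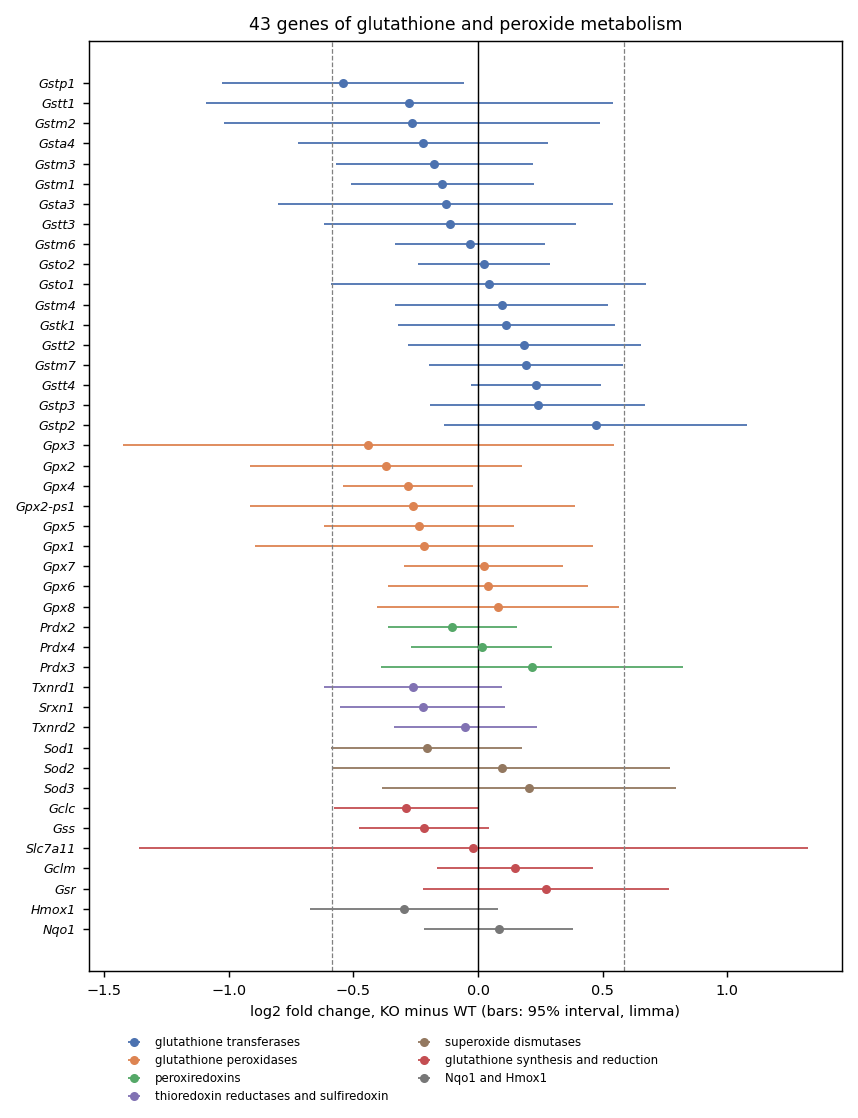
Log2 fold change of each of the 43 genes, KO minus WT, grouped by role. Points are estimates, bars are 95% intervals from limma, the solid line marks no change and dashed lines mark a 1.5-fold change. Only the bars of Gstp1 and Gpx4 leave out 0, both below it, and Slc7a11 and Gpx3 have the widest bars.

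The glutathione transferases, 18 genes, had 9 members with a lower and 9 with a higher mean in KO and a median log2 fold change of -0.0037. The pi class held both the lowest and the highest log2 fold change of the whole set. Gstp1, the main pi-class transferase, had log2 intensities of 11.49, 11.22 and 11.19 in KO nerves against 12.24, 11.48 and 11.81 in WT nerves. KO replicate 1 lay just above the lowest WT array, and the other KO arrays lay below all WT arrays. The mean was 0.687 of the WT level (log2 fold change -0.54 ± 0.21, limma unadjusted p = 0.0335, adjusted p = 0.850). Without WT replicate 1, the highest array, the log2 fold change was -0.34, and the unadjusted p stayed under 0.05 in 2 of the 6 fits that left out an array.

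Gstp2, the next gene along chromosome 19 and a close relative of Gstp1, had 10.02, 9.07 and 9.88 in KO against 9.26, 9.33 and 8.96 in WT. Its values ran the other way: KO replicates 1 and 3 were above every WT array, while KO replicate 2 lay among them. The log2 fold change was 0.47 ± 0.26 (limma adjusted p = 0.870), and it was 0.77 without KO replicate 2 and 0.29 without KO replicate 1. Gstp3, the third gene of that row, averaged 7.02 ± 0.29 in KO and 6.78 ± 0.20 in WT, and its groups overlapped. A further probe set, which the annotation gives to Gstp1 and Gstp2 together and which was therefore outside the set, read 10.28, 9.73 and 10.06 in KO against 10.45, 10.09 and 10.10 in WT, a difference of -0.19. The 3 probe sets that touch Gstp1 or Gstp2 thus gave differences of unlike sign and size. Whether Gstp1 and Gstp2 differed from each other in their response was not tested, and their transcripts are alike enough that probes may read both.

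The promoter windows of Gstp1 and Gstp2 are shown because these neighbours had fold changes of opposite sign, and that of Srxn1 because it held a match to more than 1 of the motifs searched for stress-responsive factors. Each window runs from 250 bases before to 50 bases after the annotated start in RefSeq, on GRCm38.p6: Gstp1 at chr19:4037863-4038162 and Gstp2 at chr19:4042172-4042471, both on the minus strand, and Srxn1 at chr2:152105274-152105573 on the plus strand. Capitals mark the motif matches named below, and all other bases are in lower case.
Gstp1: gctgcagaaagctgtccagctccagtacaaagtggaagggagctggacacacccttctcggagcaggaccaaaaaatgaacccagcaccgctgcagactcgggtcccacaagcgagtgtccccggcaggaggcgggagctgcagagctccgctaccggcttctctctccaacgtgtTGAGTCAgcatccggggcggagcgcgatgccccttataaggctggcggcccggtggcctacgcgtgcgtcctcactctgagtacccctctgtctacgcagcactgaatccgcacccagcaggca
Gstp2: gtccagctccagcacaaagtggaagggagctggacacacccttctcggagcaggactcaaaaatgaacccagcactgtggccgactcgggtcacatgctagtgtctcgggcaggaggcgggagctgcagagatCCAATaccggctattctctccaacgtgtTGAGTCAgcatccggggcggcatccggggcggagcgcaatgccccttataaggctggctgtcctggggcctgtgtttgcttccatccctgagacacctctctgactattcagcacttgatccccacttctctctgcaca
Srxn1: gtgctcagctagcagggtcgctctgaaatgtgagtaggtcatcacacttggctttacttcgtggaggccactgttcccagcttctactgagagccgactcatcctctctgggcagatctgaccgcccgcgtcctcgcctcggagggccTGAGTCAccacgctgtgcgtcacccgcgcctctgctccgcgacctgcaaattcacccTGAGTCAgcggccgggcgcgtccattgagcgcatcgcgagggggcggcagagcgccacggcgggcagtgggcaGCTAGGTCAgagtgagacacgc
Gstp1 and Gstp2 windows were identical at 246 of 319 aligned positions (77.1%), and both held the AP-1 motif TGAGTCA, with its first base 74 bases before the start in Gstp1 and 89 bases before it in Gstp2. Gstp2 also held CCAAT. Srxn1 held TGAGTCA at 2 places and, after the start, the antioxidant response element core TGACNNNGC on the other strand. Motifs were read on both strands, and a TGAGTCA site read on the other strand and followed there by GC also counts as TGACNNNGC. In Gstp1, in Gstp2 and at -45 in Srxn1, TGAGTCA was followed by GC on the printed strand. These sites were not counted as the core, since the search took TGAC and not TGAG at its start. Matches to the core therefore leave out sites of that form. Windows were found for 36 of the 43 genes, 48 windows in all. The core TGACNNNGC was in 6 of these (12.5%, against 12.4% of 32851 windows of all genes), in the genes Gclm, Gsta3, Gstm7, Sod1, Srxn1 and Txnrd1. TGAGTCA was in 3 windows (6.25% against 5.20%). The sterol regulatory element TCACNCCAC was in 2 windows, those of Gstm6 and Gstm7 (4.17% against 1.24%), and the E-box CACGTG in 2, those of Gpx6 and Prdx4 (4.17% against 7.15%). CCAAT was in 31 windows (64.6% against 37.4%). Several genes have more than 1 window, so windows of a gene overlap, and a match describes the letters in the window and not the binding of a factor.

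Among the theta-class transferases, which lie as an unbroken row of 4 genes on chromosome 10, Gstt4 was the 1 whose groups did not overlap. It had 5.98, 6.07 and 6.05 in KO against 5.73, 5.89 and 5.79 in WT, so every KO array was higher, by a log2 fold change of 0.23 ± 0.11 (limma adjusted p = 0.867). The gene was dim, within the dimmer 25% of genes. Its neighbour Gstt1 had 8.65, 9.65 and 8.81 in KO against 8.95, 9.04 and 9.94 in WT, with a log2 fold change of -0.28 ± 0.35 and the largest SD of the transferases. Arrays of 1 genotype differed in Gstt1 by about 1 log2 unit, far more than the genotypes did. Gstt2 (8.34 ± 0.24 in KO and 8.15 ± 0.32 in WT) and Gstt3 (7.24 ± 0.38 in KO and 7.36 ± 0.21 in WT) overlapped between the groups.

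The mu class, 6 neighbouring genes on chromosome 3, had log2 fold changes between -0.27 for Gstm2 and 0.19 for Gstm7, with 4 genes lower and 2 higher. Alpha-class Gsta3 and Gsta4 stood at -0.13 and -0.22, the omega-class genes Gsto1 and Gsto2 at 0.044 and 0.024, and kappa-class Gstk1, which works in mitochondria and peroxisomes, at 0.11. None of these genes had groups without overlap. Genes of a class resemble each other, so a probe set may read more than its own gene.

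**Figure D2:**
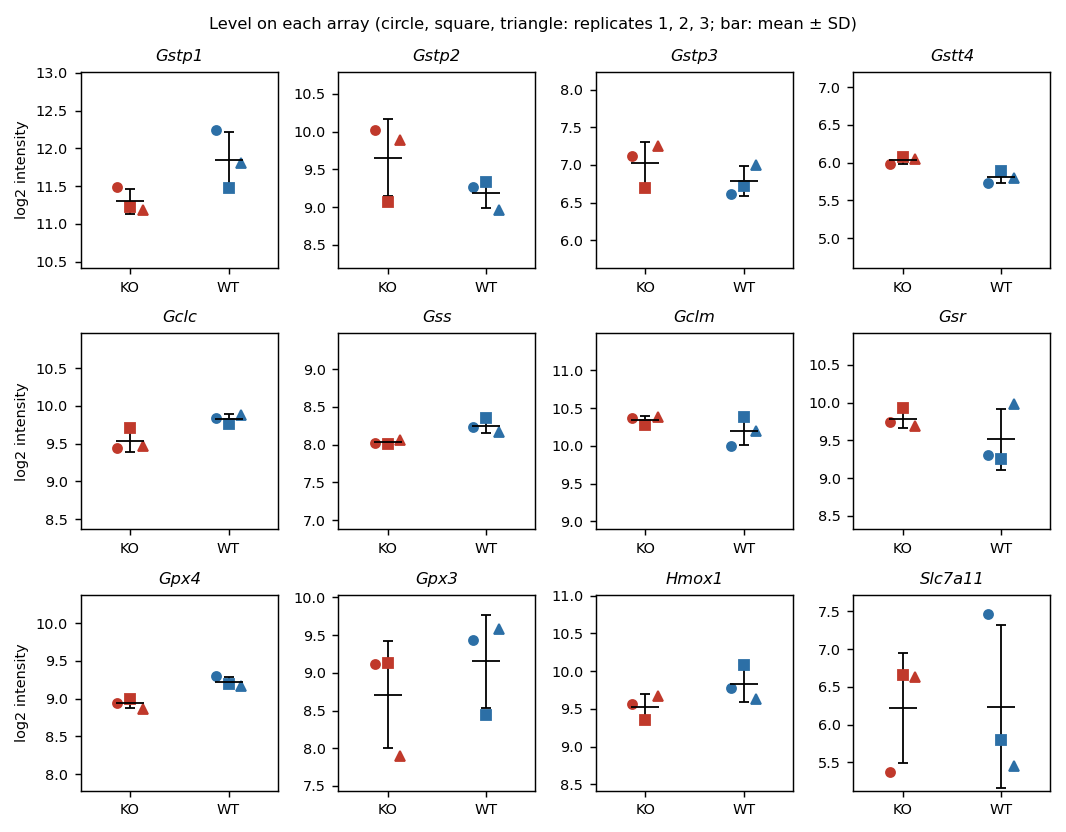
Log2 intensity of 12 genes on each array, KO on the left and WT on the right of each panel, with every panel spanning the same number of log2 units. Symbols mark replicates and bars the mean and SD. For Gclc, Gss and Gpx4 the KO points lie below all WT points and for Gstt4 above them, while Slc7a11 and Gpx3 scatter widely within each genotype.

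Glutathione synthesis was measured through 3 enzyme genes and the cystine importer. Gclc, the catalytic subunit of the rate-limiting ligase, had log2 intensities of 9.44, 9.71 and 9.47 in KO nerves against 9.84, 9.76 and 9.88 in WT nerves. Each KO array was lower than each WT array, and the mean was 0.819 of the WT level (log2 fold change -0.29 ± 0.12, limma unadjusted p = 0.0517, adjusted p = 0.850). Gss, which adds the last amino acid, read 8.02, 8.005 and 8.06 in KO against 8.23, 8.35 and 8.17 in WT. Here too every KO array was lower, with a mean 0.860 of the WT level (log2 fold change -0.22 ± 0.11, adjusted p = 0.868 in limma). The modifier subunit Gclm had the other sign, with 10.37, 10.28 and 10.38 in KO against 10.00, 10.38 and 10.20 in WT and overlap between the groups (log2 fold change 0.15 ± 0.13). Over the 6 fits that each omit an array, Gclc stayed between -0.37 and -0.24, that of Gss between -0.26 and -0.17 and that of Gclm between 0.053 (without WT replicate 1) and 0.24 (without WT replicate 2). Gss was at -0.14 after quantile normalization.

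Gsr, which recycles oxidised glutathione, had 9.74, 9.93 and 9.70 in KO against 9.31, 9.26 and 9.98 in WT. WT replicates 1 and 2 were below all KO arrays and WT replicate 3 was above them, and the log2 fold change of 0.27 ± 0.21 became 0.51 without that array (unadjusted p under 0.05 in that fit). It was 0.17 without WT replicate 1, 0.14 without WT replicate 2 and 0.17 with array weights. Slc7a11, which brings in cystine, varied most of all 43 genes: it read 5.38, 6.65 and 6.63 in KO against 7.47, 5.80 and 5.45 in WT. Means were alike at 6.22 ± 0.73 in KO and 6.24 ± 1.08 in WT, and the 95% interval of the log2 fold change ran from -1.36 to 1.33. A second, dimmer probe set of Slc7a11 stayed between 3.76 and 4.11 in KO and between 3.72 and 4.19 in WT and gave -0.12.

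The glutathione peroxidases, 8 genes and the pseudogene Gpx2-ps1, averaged lower in KO for 6 of 9, with a median log2 fold change of -0.24. Quantile normalization and arrays at 1 median also left 6 of 9 lower. Gpx4, the peroxidase that reduces lipid hydroperoxides in membranes and restrains ferroptosis, read 8.95, 8.996 and 8.87 in KO against 9.29, 9.19 and 9.17 in WT. KO arrays lay below WT arrays without overlap, and the spread within each genotype was small: the mean was 8.94 ± 0.07 in KO and 9.22 ± 0.07 in WT. This made 0.823 of the WT level (log2 fold change -0.28 ± 0.11, limma unadjusted p = 0.0387, adjusted p = 0.850). The fold change stayed between -0.31 and -0.24 with each array left out, although the unadjusted p then missed 0.05 each time. On all arrays it was -0.21 after quantile normalization (limma unadjusted p = 0.0972) and -0.25 with arrays at 1 median (limma unadjusted p = 0.0889). The limma unadjusted p was also above 0.05 with a replicate block (0.0629) and with the adipocyte score as covariate (0.0566).

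Gpx3, the secreted peroxidase, had 9.11, 9.13 and 7.89 in KO against 9.43, 8.44 and 9.58 in WT. KO replicate 3 and WT replicate 2 were low, and the log2 fold change of -0.44 ± 0.42 was -0.031 without KO replicate 3, -0.80 without WT replicate 2 and -0.23 without WT replicate 3. Gpx2, the epithelial form, read 5.09, 5.09 and 4.82 in KO against 5.08, 5.89 and 5.13 in WT, where WT replicate 2 alone was high. It was dim, and the log2 fold change of -0.37 ± 0.23 was -0.11 without that array. Gpx1, the abundant cytosolic form, averaged 9.60 ± 0.53 in KO and 9.82 ± 0.34 in WT. Gpx8, of the endoplasmic reticulum, averaged 11.21 ± 0.22 in KO and 11.13 ± 0.35 in WT, and Gpx7, also of that compartment, 7.47 ± 0.05 in KO and 7.45 ± 0.20 in WT. Gpx5 and Gpx6, neighbours on chromosome 13, lay with Gpx2 in the dimmer 25% of genes, with log2 fold changes of -0.24 and 0.040. Gpx2-ps1 averaged 5.84 ± 0.52 in KO and 6.10 ± 0.29 in WT, and its probes may also read Gpx2.

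Peroxiredoxins were measured by probe sets of their own for 3 genes. Prdx2, a cytosolic form, read 8.31, 8.24 and 8.41 in KO against 8.43, 8.41 and 8.43 in WT, a log2 fold change of -0.10 ± 0.11 with overlap at a single KO array. Prdx3, the mitochondrial form, had 10.36, 9.64 and 9.81 in KO against 9.99, 9.26 and 9.90 in WT, and its log2 fold change of 0.22 ± 0.26 came to -0.012 without WT replicate 2. Prdx4, of the endoplasmic reticulum, averaged 7.29 ± 0.07 in KO and 7.27 ± 0.12 in WT. The 95% interval for Prdx4 ran from -0.27 to 0.30 on the log2 scale. Srxn1, the sulfiredoxin that rescues overoxidised peroxiredoxins, had 8.68, 8.57 and 8.83 in KO against 9.09, 8.92 and 8.73 in WT. KO replicates 1 and 2 lay below all WT arrays, for a log2 fold change of -0.22 ± 0.14 that was -0.13 without WT replicate 1 and -0.15 after quantile normalization.

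The thioredoxin reductase gene Txnrd1, whose product works in the cytosol, read 9.42, 8.99 and 9.03 in KO against 9.52, 9.33 and 9.36 in WT. As with Srxn1, 2 of the 3 KO arrays were below all WT arrays (log2 fold change -0.26 ± 0.15, limma adjusted p = 0.875), and the value was -0.40 without KO replicate 1. Mitochondrial Txnrd2 averaged 8.10 ± 0.05 in KO and 8.15 ± 0.14 in WT, with a log2 fold change of -0.051 that was 0.022 after quantile normalization. Hmox1, the inducible heme oxygenase, had 9.57, 9.35 and 9.67 in KO against 9.77, 10.08 and 9.63 in WT. Only KO replicate 3 reached the WT range, and the log2 fold change was -0.30 ± 0.16 (adjusted p = 0.870 in limma), or -0.17 without WT replicate 2, the highest array. Nqo1, the quinone reductase often used as an NRF2 readout, had 8.85, 8.598 and 8.80 in KO against 8.76, 8.56 and 8.68 in WT, a log2 fold change of 0.082 ± 0.13. Genes known as NRF2 targets were thus found on both sides of 0. Among them, Gclc, Srxn1, Txnrd1 and Hmox1 had a lower and Gclm and Nqo1 a higher mean in KO under every scaling tried. These are examples and not all such genes of the set, so their split is no count over NRF2 targets.

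Superoxide dismutases turn superoxide into hydrogen peroxide. Sod1, the cytosolic enzyme, had 11.80, 11.96 and 11.69 in KO against 12.02, 11.77 and 12.28 in WT, a log2 fold change of -0.21 ± 0.16. This was -0.077 without WT replicate 3 and -0.34 without WT replicate 2. Sod2, the mitochondrial enzyme, read 11.73, 10.94 and 11.01 in KO against 11.56, 10.68 and 11.17 in WT. Values in each genotype spread over more than 0.7 log2 units, and the log2 fold change of 0.095 ± 0.29 was -0.0037 with the muscle score as a covariate. Sod3, the secreted enzyme, averaged 9.92 ± 0.25 in KO and 9.72 ± 0.47 in WT.

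Across arrays, 10 of the 43 members (23.3%) had their highest levels on KO replicate 2 and WT replicate 3, against 9.55% of all genes. This count was made after the marker values were seen. The 10 were Gpx1, Gpx8, Gsr, Gsta3, Gstk1, Gstm1, Gstm2, Gstt1, Gstt3 and Sod3. The same pair of arrays was highest for 14 of 16 adipocyte, 10 of 14 macrophage, 7 of 12 fibroblast and 6 of 12 endothelial markers and for 0 of 20 muscle and 0 of 12 Schwann cell markers. The adipocyte score, the mean over the markers of the log2 level minus its mean over 6 arrays, was -0.76, 1.13 and -0.88 in KO and -0.67, -0.20 and 1.37 in WT. Gstm2 followed this order in part, with 9.50, 10.41 and 9.62 in KO against 9.86, 9.79 and 10.69 in WT. With the adipocyte score as a covariate the log2 fold change of Gstm2 was -0.12 in place of -0.27, that of Gstt1 -0.11 in place of -0.28 and that of Gpx1 -0.090 in place of -0.22. Of the same 10, Gsta3, Gstm1 and Gstt3 also moved toward 0, and the others moved away from it. Gsr went from 0.27 to 0.35, Sod3 from 0.21 to 0.29, Gpx8 from 0.081 to 0.15 and Gstk1 from 0.11 to 0.16. Gpx4 (-0.28), Gclc (-0.26), Gss (-0.23) and Gstp1 (-0.57) stayed near their values without the score.

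The muscle score was 0.31, -0.36 and 0.35 in KO and 0.86, -0.91 and -0.25 in WT. Gsto1, Prdx3 and Sod2, picked after their values were seen, were each highest on KO replicate 1 or WT replicate 1 and lowest on WT replicate 2, the array with the lowest muscle score. They did not keep the order of that score, since all 3 were lower on KO replicate 3 than on WT replicate 3. Gsto1 read 8.79, 8.29 and 8.47 in KO against 8.86, 7.89 and 8.67 in WT. The part of either tissue in these levels was not tested beyond the fits with a score as covariate. Endothelial markers had a lower mean in KO for 11 of 12 (91.7%, against 56.9% of all genes), and 0 had a limma unadjusted p under 0.05. Their scores were -0.060, 0.19 and -0.48 in KO and -0.13, 0.096 and 0.38 in WT, so the groups overlapped and KO replicate 3 was lowest. Of the erythroid list 3 of 12 genes were measured, with scores of 0.029, -0.25 and 0.0046 in KO and 0.19, -0.34 and 0.36 in WT. The Y-linked genes Eif2s3y, Kdm5d and Uty were measured on every array, between 8.59 and 10.34 in KO and between 8.73 and 9.72 in WT. KO replicate 1 was the highest array for each of them. Eif2s3y had 10.34, 9.59 and 9.59 in KO against 9.12, 9.50 and 9.21 in WT, without overlap, while Kdm5d, Uty and Xist overlapped. Xist stayed between 5.52 and 5.91 in KO and between 5.43 and 5.88 in WT.

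**Figure D3:**
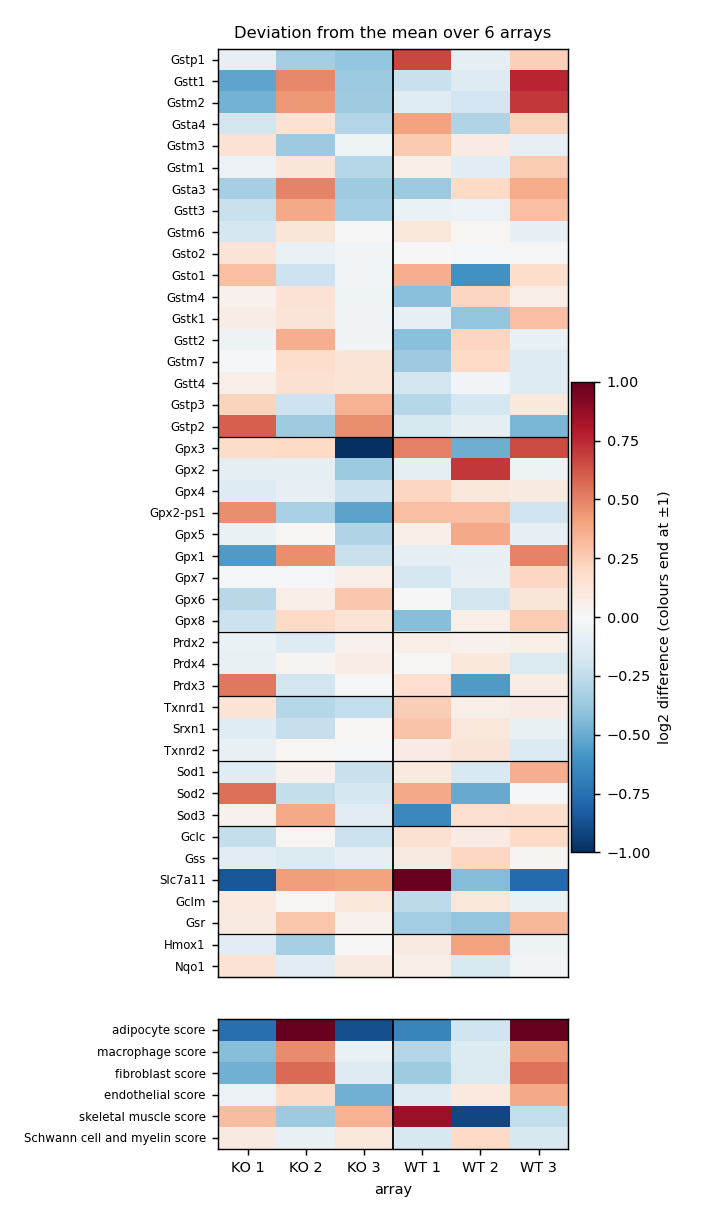
Deviation of each of the 43 genes from its mean over 6 arrays, in log2 units, with KO arrays left and WT arrays right of the black line. The lower panel shows cell type marker scores on the same colour scale. KO 2 and WT 3 share the red of the adipocyte score in rows such as Gstt1, Gstm2 and Gpx1.

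**Figure D4:**
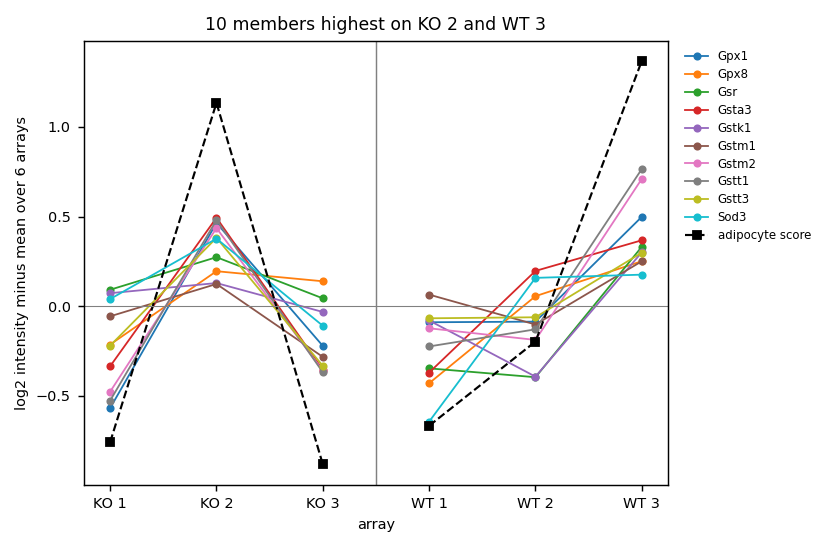
Log2 intensity minus the mean over 6 arrays for the 10 genes highest on KO 2 and WT 3 (coloured lines) and the adipocyte score (black dashes), by array, with KO left and WT right. The 10 genes were picked for this pattern, and their peaks are smaller than those of the score, 1.13 and 1.37.

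Genes that work with this set were taken from 3 lists, of which 58 of 63 genes were measured. By limma 0 of them had an adjusted p under 0.05 (smallest 0.850). The unadjusted p was under 0.05 for 1 higher and 5 lower genes in KO, 10.3% of the 58. Of all genes 5.83% were, 2.34% higher and 3.49% lower. Arrays did not overlap for 1 higher and 8 lower genes, 15.5% of the 58. Of all genes 12.3% did not overlap, 4.08% higher and 8.21% lower. The median log2 fold change was -0.090, against -0.032 over all genes. A lower mean was found for 40 of 58 genes (69.0%), against 56.9% of all genes. Only 5 of the 58 lay in the dimmer 50% of genes. Once the dimmer 50% was left out, 6987 of 11090 genes had a lower mean in KO, with a median log2 fold change of -0.056. Brighter genes are thus the closer comparison for these lists.

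Of 31 thiol redox partners 9 had a higher and 22 a lower mean, and 20 were lower after quantile normalization. Of all 22180 genes 12624 had a lower mean in the main fit and 11419 after quantile normalization. Chac1, which breaks glutathione down in the cytosol, was the 1 gene of these 9 with an unadjusted p under 0.05: it read 8.66, 8.45 and 8.61 in KO against 8.32, 7.29 and 7.88 in WT. All KO arrays lay above all WT arrays, by a log2 fold change of 0.75 ± 0.25 (limma unadjusted p = 0.0203, adjusted p = 0.850), which became 0.47 without WT replicate 2, the lowest array. Ggct, of the same list, had 7.63, 7.63 and 7.76 in KO against 7.89, 8.10 and 8.004 in WT, every KO array lower, at -0.32 ± 0.12. Catalase, Cat, which removes hydrogen peroxide in peroxisomes, averaged 12.63 ± 0.17 in KO and 12.47 ± 0.47 in WT.

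Of 12 regulators of NRF2, 8 had a lower mean in KO, and 6 after quantile normalization. Keap1 and Dpp3 had an unadjusted p under 0.05, both lower by the probe set used for the test. On it Keap1 had 8.17, 8.09 and 7.73 in KO against 8.51, 8.46 and 8.38 in WT, without overlap, at -0.46 ± 0.15 (limma unadjusted p = 0.0171, adjusted p = 0.850). A second, dimmer probe set of Keap1 ran the other way, with 6.76, 6.85 and 6.91 in KO against 6.65, 6.51 and 6.73 in WT, a difference of 0.21 with every KO array higher. The mean of both probe sets gave -0.12, so no direction for Keap1 holds over its probe sets. Dpp3, a peptidase that binds KEAP1, averaged 8.66 ± 0.13 in KO and 8.95 ± 0.06 in WT, at -0.29 ± 0.12. Nfe2l2, the gene of NRF2 itself, averaged 10.97 ± 0.12 in KO and 11.01 ± 0.15 in WT, and its 95% interval ran from -0.35 to 0.27. In the list of NADPH supply, 10 of 15 genes had a lower mean, also after quantile normalization. Taldo1, the transaldolase of the pentose phosphate pathway, read 8.86, 8.92 and 8.79 in KO against 9.21, 9.19 and 9.25 in WT. Its groups were tight and apart, at -0.36 ± 0.11 (limma unadjusted p = 0.0123, adjusted p = 0.850). Mthfd2, of mitochondrial folate metabolism, averaged 6.77 ± 0.04 in KO and 7.12 ± 0.15 in WT, at -0.35 ± 0.12, also without overlap. With each array left out in turn these 6 genes kept their direction (Keap1 by its brighter probe set), and none of them passed the adjusted test.

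**Figure D5:**
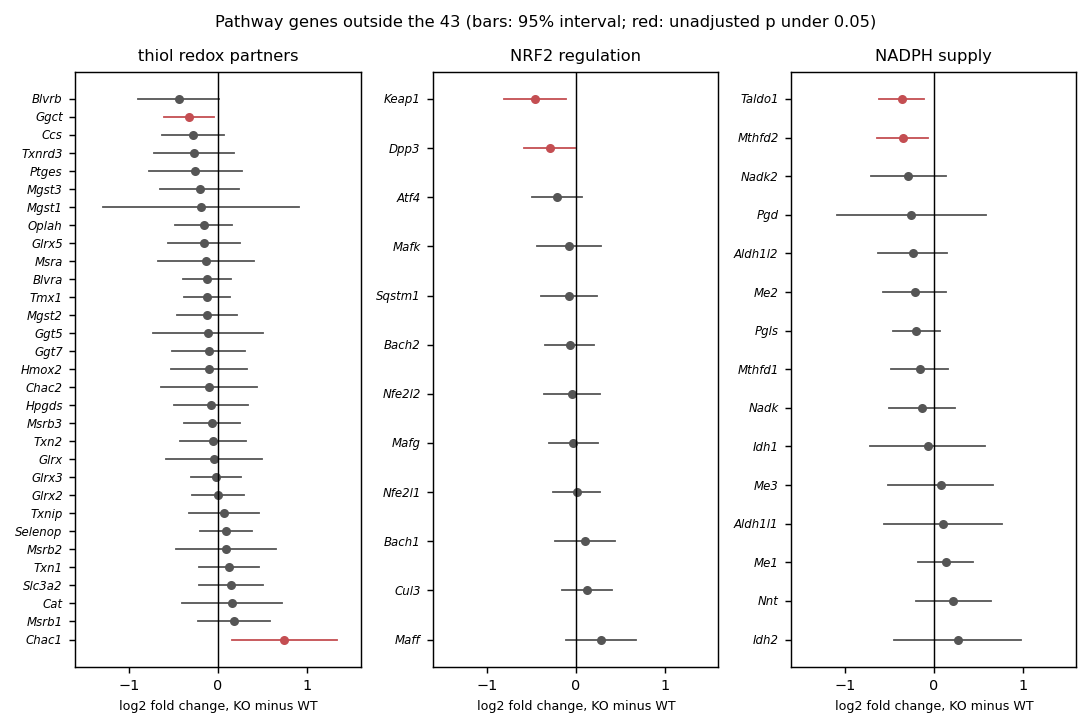
Log2 fold change, KO minus WT, of 58 genes of 3 lists that work with the 43. Points are estimates and bars 95% intervals from limma, in red where the unadjusted p was under 0.05. Red marks Chac1 above 0 and Ggct, Keap1 (brighter probe set), Dpp3, Taldo1 and Mthfd2 below it.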

How the data were processed

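Total RNA of whole sciatic nerve from 3 Srebf-1c KO and 3 WT samples was hybridised to 1 array each. The authors deposited probe set intensities on a linear scale, made per the series' design text with TAC and the Partek software by Robust Multichip Average (RMA), which corrects background, normalizes across arrays and combines probes. That the scale is linear was read from the values, 3.67 to 23738. The submitters' processing notes name the build mm8, and no software version was found. Groups were taken from titles and genotype, since the source name says wild type for every sample.

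Log2 was taken without a pseudocount. Of 41077 probe sets 23521 had 1 symbol, 1814 several and 15742 none, by the platform annotation. The first kind was kept, with the highest mean over 6 arrays for a gene with several probe sets, which left 22180 genes and no filter on dim genes. Prdx1, Gsta1, Gsta2, Gstm5 and Gstz1 were carried by probe sets with several symbols and were outside the set. All 43 members matched RefSeq by Entrez identifier with their symbol unchanged. KO minus WT was fitted for every gene by limma 3.58.1 (lmFit, eBayes; R 4.3.3), two-sided, with Benjamini-Hochberg adjustment over 22180 genes. The number of arrays limits precision. In data simulated for 22180 genes 70.0% of the 2-fold and 97.6% of the 4-fold changes were called, beside an average of 10.3 false calls. There, independent normal noise was used and many genes were changed at once, which eases the adjusted threshold. In the real data 1 gene passed it, so these shares do not say how often a changed member would be called.

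Named in full were members at an unadjusted p under 0.05 or without overlap, and in each role the 3 largest changes, the highest mean and the largest SD. From the partner lists, genes at an unadjusted p under 0.05 and the 2 with the smallest p were named. Other members, Nfe2l2 and Cat stand outside this rule and were added after values were seen. Members and lists were chosen with earlier results of these data known. Tried beside this were the methods' ANOVA, a block for replicate number, array weights, eBayes with trend and robust estimation, no dim 25% or 50% of genes, quantile normalization, arrays at 1 median, a pseudocount of 16, the mean of probe sets, a marker score as covariate and leaving out each array.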

Additional observations from a re-analysis of the deposited data

How the results depend on the processing

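The count of members past an adjusted p of 0.05 was 0 under each of the 12 settings on all arrays and the 6 that left out an array. At an unadjusted p under 0.05 there were 2 members, against 4 with the methods' ANOVA and with array weights, and 1 with the adipocyte score as covariate, a replicate block, arrays at 1 median or quantile normalization. With arrays left out the count ran from 0 to 3. The study's criterion took 1 member with array weights (Gstp2) and 1 with the muscle score (Gstp1), and 0 to 1 with arrays left out. Leaving out an array moved the median log2 fold change of the members between -0.11 and 0.0074. Srebf1 missed the adjusted threshold under the methods' ANOVA (log2 fold change -1.52, adjusted p = 0.308), a replicate block (-1.52, 0.713), quantile normalization (-1.46, 0.0594), arrays at 1 median (-1.49, 0.0842), the adipocyte score (-1.51, 0.104) and the muscle score (-1.52, 0.217), and in all 6 fits with an array left out (-1.56 to -1.47, adjusted p 0.255 to 0.764). Of 30 other named genes, all but 3 kept their direction in all settings on all arrays. Several of these settings could not turn it. The methods' ANOVA, the replicate block, the trend and robust fit and the filters on dim genes leave a fold change as it is. So does the mean of probe sets where a gene has 1 probe set. Slc7a11 turned to 0.16 with array weights and 0.013 with arrays at 1 median, Sod2 to -0.0037 with the muscle score and Txnrd2 to 0.022 after quantile normalization. With arrays left out 22 of the 30 kept it, and the ranges of the others were -0.11 to 0.23 for Gpx8, -0.58 to 0.039 for Gstt1, -0.012 to 0.36 for Prdx3, -0.053 to 0.070 for Prdx4, -0.41 to 0.60 for Slc7a11, -0.16 to 0.31 for Sod2, -0.064 to 0.35 for Sod3 and -0.13 to 0.0018 for Txnrd2. The causes were not tested. Same-numbered KO and WT arrays deviated with correlations of 0.117, 0.0117 and -0.233, so the numbers were not taken to pair the samples. Over all genes the study's criterion gave 265 genes, against 138 with the methods' ANOVA, 139 with a pseudocount of 16 and 89 without the dimmest 50%. It gave 94 higher and 56 lower genes without the dimmest 25%, 277 and 275 without KO replicate 2, 257 and 178 without WT replicate 1, and 229 and 259 without WT replicate 3. Its unadjusted p alone gave 1293 genes, against 317 higher and 489 lower without KO replicate 1 and 276 and 350 without KO replicate 3.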

Other observations

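Probe sets with several symbols gave values for relatives left out of the set. For Prdx1, the most widely expressed cytosolic peroxiredoxin, the brightest of 3 such probe sets read 11.51, 11.35 and 11.51 in KO against 11.64, 11.52 and 11.57 in WT, a difference of -0.12 with every KO array lower, while the others gave 0.14 and -0.13. The brightest probe set shared by Gsta1 and Gsta2 read 7.70, 7.34 and 7.91 in KO against 7.43, 7.31 and 7.29 in WT, a difference of 0.31. The probe set shared by Gstz1 and Pomt2 had 9.56, 10.79 and 9.59 in KO against 9.35, 9.61 and 11.10 in WT, again highest on KO replicate 2 and WT replicate 3. No test was run on these probe sets.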
